A study of Mus musculus with 9 samples.

Results

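Bone marrow stromal cells marked by an Il7 reporter were set against stromal cells of the same surface gate from mice without the reporter, to ask which transcripts were equal and which differed. The comparison used 6 of the 9 arrays of the study, chosen by their titles: 3 arrays of YFP-positive cells and 3 arrays of wild-type cells. YFP-positive cells lacked CD45 and lineage markers, carried YFP, CD54 and BP1, and came from C57Bl/6J mice labelled as IL7-Cre transgenic and heterozygous for Rosa-eYFP. Wild-type cells lacked CD45 and lineage markers, carried CD54 and BP1, and came from C57Bl/6J mice labelled as wild type. Mice of both groups were 6 to 12 weeks old, and each sample held 1800 to 10000 sorted cells. The other 3 arrays held total marrow from C57Bl/6 mice (2 arrays) and YFP-negative cells of the gate from the reporter strain (1 array). YFP in this cross marks a cell in which Cre driven by Il7 is active or was active in that cell or an ancestor, so it is not a measure of present Il7 transcription. Genotype and reporter status differed together between the groups and cannot be told apart. The labels do not say whether replicates came from separate animals, so p-values measure the spread between samples, which may be technical.

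Interleukin 7 is a growth factor that B cell precursors need in the marrow, and stromal cells are its main source there. The stromal cells that make it belong to the perivascular reticular network, which also makes the chemokine CXCL12 and stem cell factor and carries the leptin receptor and the adipocyte hormone gene Adipoq. CD54 is the adhesion molecule encoded by Icam1, and BP1 is the aminopeptidase encoded by Enpep.

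Signals on a log2 scale were read for the 21789 rows (transcript clusters) that pair with exactly 1 gene symbol, so a difference of 1 is a 2-fold difference in signal. A row was called above the array median when its value, minus that array's median, averaged over the 6 arrays above 0; 10991 rows were. A row of Heatr3 lay just above this line and the row of Rasl10a just below it, with group differences of −0.45 and 0.38. Ptprc, which encodes the CD45 that the gate excludes, stood at 3.60 to 3.80 in the 6 arrays against 9.69 and 9.75 in total marrow. Lepr stood at 11.04 to 11.47 and Adipoq at 11.78 to 12.04 in the 6 arrays, against means of 3.54 and 4.81 in total marrow.

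The YFP-positive arrays were more scattered than the wild-type arrays, and 2 of them stood apart. Over the rows above the median, the standard deviation (SD) of a row was greater among YFP-positive arrays in 68.4% of rows, with a median of 0.34 against 0.23 among wild-type arrays. Correlations across these rows, which share probes and platform, were 0.882 to 0.916 between YFP-positive arrays, 0.952 to 0.967 between wild-type arrays and 0.884 to 0.935 between the groups. Replicate 3 of the YFP-positive cells lay alone on the first principal component, which held 41.1% of the variance, and its quality weight, 0.379, was the smallest among the 6 (largest 1.68). YFP-positive replicate 1 lay alone on the second component (20.6%). It also held Xist, the RNA that coats the inactive X chromosome, at 4.12, where the other 5 arrays held it at 9.14 to 9.48. The Y-linked gene Kdm5d stood at 5.67 in that replicate and at 3.03 to 3.79 in the other 5. The labels used here do not name the sex of the mice. Because of these arrays, values without YFP-positive replicate 1 or 3 are given below where they change the call of a gene described.

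Most rows were equal within 2-fold in the reporter-marked and wild-type cells. A row was called within 2-fold when a pair of one-sided limma tests placed its difference between −1 and 1 log2 unit, at a Benjamini-Hochberg adjusted p under 0.05 over all rows. This held for 18471 of 21789 rows (84.8%). Among rows above the array median it held for 7977 of 10991 (72.6%), and for the remaining 3014 neither equality nor a difference was shown. Of the 10798 rows at or below the median, 97.2% passed. Whether a transcript was present in such dim rows was not tested, so their pass does not show equal expression.

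No row was called different. The limma test of YFP-positive minus wild type, adjusted by Benjamini-Hochberg, called 0.00% of rows higher and 0.00% lower (0 of 21789; smallest adjusted p = 0.0680). An unadjusted p under 0.05 was reached by 1263 higher (5.80%) and 1987 lower rows (9.12%), and above the median by 349 higher (3.18%) and 1867 lower rows (17.0%). The count of 0 did not hold for every set of arrays. Without YFP-positive replicate 1 the fit called 26 rows, 24 of them lower, and without YFP-positive replicate 2 it called 4 lower rows, Ctsc, Rbp4, Nrep and Uxt. Without YFP-positive replicate 3 it called Mpo, without wild-type replicate 1 it called Smco3, and without wild-type replicate 2 or 3 it called none. The names behind these counts were read off after the values were seen.

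The 2 groups separated without overlap, all 3 arrays of one above all 3 of the other, in 13.0% of all rows with YFP-positive higher and in 8.72% with YFP-positive lower. Among rows above the median these shares were 4.30% higher (473 rows) and 15.6% lower (1714 rows). A mean difference of at least 1 was found in 399 rows above the median, 59 higher and 340 lower in YFP-positive cells, of which 29 and 241 did not overlap. The direction of the difference ran with the signal level. The median difference was 0.15 for rows at 3 to 4 in wild type, −0.10 at 5 to 6, −0.30 at 7 to 8 and −0.35 at 8 to 9. After cyclic loess normalization of the 6 arrays, which removes level-dependent offsets, the medians over all level ranges lay between −0.08 and 0.03. The median of all rows above the array median moved from −0.18 to −0.01. The correction raised the difference of a row by a median of 0.25 at levels 7 to 8 and 0.26 above 10, so small negative differences of bright genes can change sign under it. Values below are as deposited, and the loess value is added where a printed difference changes sign or one of at least 0.2 moves by over 1.5 times.

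**Figure D1:**
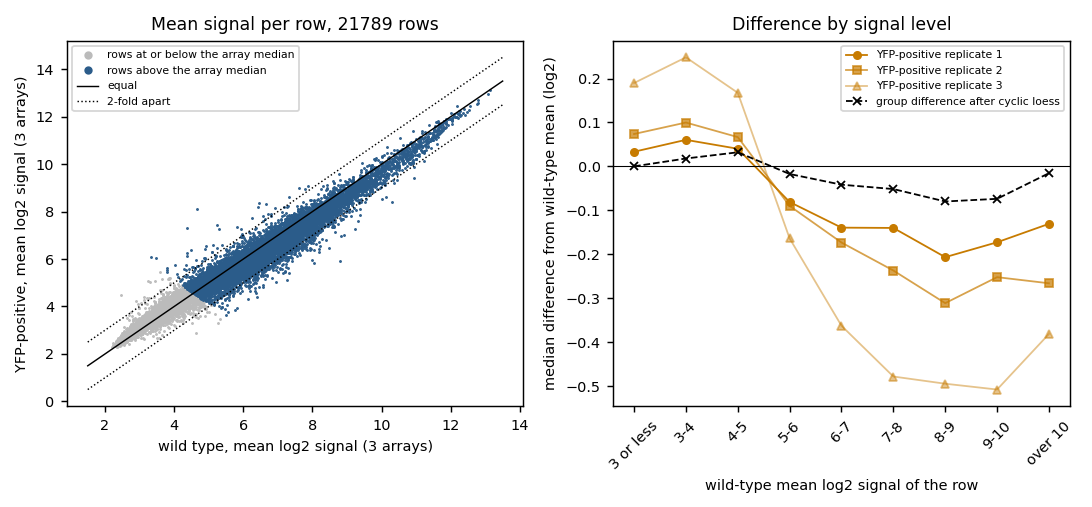
Left, mean log2 signal of each of 21789 rows in YFP-positive cells (3 arrays) against wild-type cells (3 arrays), with rows above the array median in blue, the line of equality solid and 2-fold lines dotted. Right, median difference of each YFP-positive array from the wild-type mean by wild-type signal level; all 3 arrays lie above 0 at dim levels and below 0 from level 5 up, replicate 3 the most, and the group difference after cyclic loess (crosses) lies near 0.

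Genes of reticular stroma were nearly all equal within 2-fold. Of 18 measured genes listed as reticular mesenchymal markers, 16 stood above the array median and 15 of these were within 2-fold, beside 72.6% of all rows above the median. Cxcl12 read 12.35, 12.37 and 12.28 in the YFP-positive arrays and 12.37, 12.47 and 12.32 in the wild-type arrays (difference −0.06 ± 0.10, SE; 95% interval −0.29 to 0.18; 0.18 after cyclic loess). The arrays of both groups interleave. Kitl, which encodes stem cell factor, read 10.84, 10.71 and 10.38 against 10.43, 10.59 and 10.72 (difference 0.06). Vcam1, an adhesion molecule for lymphoid cells, differed by −0.13, and the transcription factor genes Ebf3 and Foxc1, both needed by these cells in the marrow, by 0.00 and −0.12. After cyclic loess Vcam1 and Foxc1 changed sign, to 0.12 and 0.15. Lepr read 11.36, 11.47 and 11.32 against 11.17, 11.04 and 11.30; it was within 2-fold, although the groups did not overlap. Nt5e, which encodes CD73, was the exception: it read 7.10, 5.06 and 4.82 against 4.73, 4.53 and 4.31, so that most of its difference of 1.13 ± 0.54 (SE) came from YFP-positive replicate 1.

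Of the 486 rows above level 10 in wild type, 81.5% were within 2-fold and 9 differed by at least 1. The 10 brightest genes among those called within 2-fold, chosen by that call, were Baiap2l1, the 7SK RNA gene Rn7sk, the ribosomal genes Rps29 and Rplp1, Actb, Cxcl12, the RNase P RNA gene Rpph1, Igfbp5, Sparc and Serping1. Igfbp5, a binding protein of insulin-like growth factors, differed by −0.00 ± 0.21 (SE; 0.23 after cyclic loess), and Serping1, the inhibitor of complement C1, by 0.01 ± 0.11 (SE). Sparc, a matrix glycoprotein, was lower in every YFP-positive array (12.18, 12.08 and 11.99 against 12.40, 12.46 and 12.34), yet its difference of −0.32 was within 2-fold and became −0.08 after cyclic loess.

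Adipocyte-lineage and basement membrane genes were within 2-fold in nearly all members above the median, 10 of 11 and 13 of 14, beside 72.6% of all rows above the median. Adipoq differed by −0.09, the lipase gene Lpl by −0.24 and the angiotensinogen gene Agt by −0.28; after cyclic loess these became 0.16, 0.01 and −0.03. Pparg, the transcription factor of fat cell differentiation, read 8.66, 8.97 and 8.52 against 9.34, 9.40 and 9.28. Its groups did not overlap, and its difference of −0.63 ± 0.13 (SE; −0.36 after cyclic loess) was still within 2-fold. The laminin chains Lamb1 and Lamc1 differed by −0.07 and −0.17, the perlecan gene Hspg2 by −0.20, and Lama1 (−0.70 ± 0.21, SE) was the only one of the 14 outside. After cyclic loess Lamb1, Lamc1 and Hspg2 changed sign, to 0.20, 0.10 and 0.06. Of the 14 basement membrane genes above the median, 7 stood lower in all YFP-positive arrays and 0 higher. The shares of all rows above the median were 15.6% and 4.30%. The median difference of these 14 was −0.24, and 0.02 after cyclic loess.

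Of 16 niche factors, all above the median, 9 were within 2-fold, beside 72.6% of all rows above the median. Besides Cxcl12, Kitl and Vcam1, these included the cytokine genes Csf1 (−0.35), Il34 (0.09), Flt3l (−0.40), Tnfsf11 (0.02) and Tnfsf13b (−0.35) and the Notch ligand gene Jag1 (−0.28). After cyclic loess Csf1, Flt3l and Jag1 stood at −0.09, −0.14 and −0.06. Tgfb1, Bmp4, Lgals1 and Igf1, 4 of the 16, were lower in all 3 YFP-positive arrays, beside 15.6% of all rows above the median. Bmp4 read 9.90, 10.18 and 9.43 against 10.57, 10.84 and 10.58, and Tgfb1 read 6.94, 6.80 and 5.69 against 7.40, 7.63 and 7.67. Their differences were −0.83 ± 0.20 and −1.09 ± 0.31 (SE). Lgals1, which encodes galectin 1, a ligand of the pre-B cell receptor, differed by −0.79 ± 0.20 (SE) and Igf1 by −0.59 ± 0.24 (SE), or −0.53 and −0.32 after cyclic loess. None of the 4 was called. In bulk samples such as these, fewer cells of a type and less RNA per cell cannot be told apart.

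**Figure D2:**
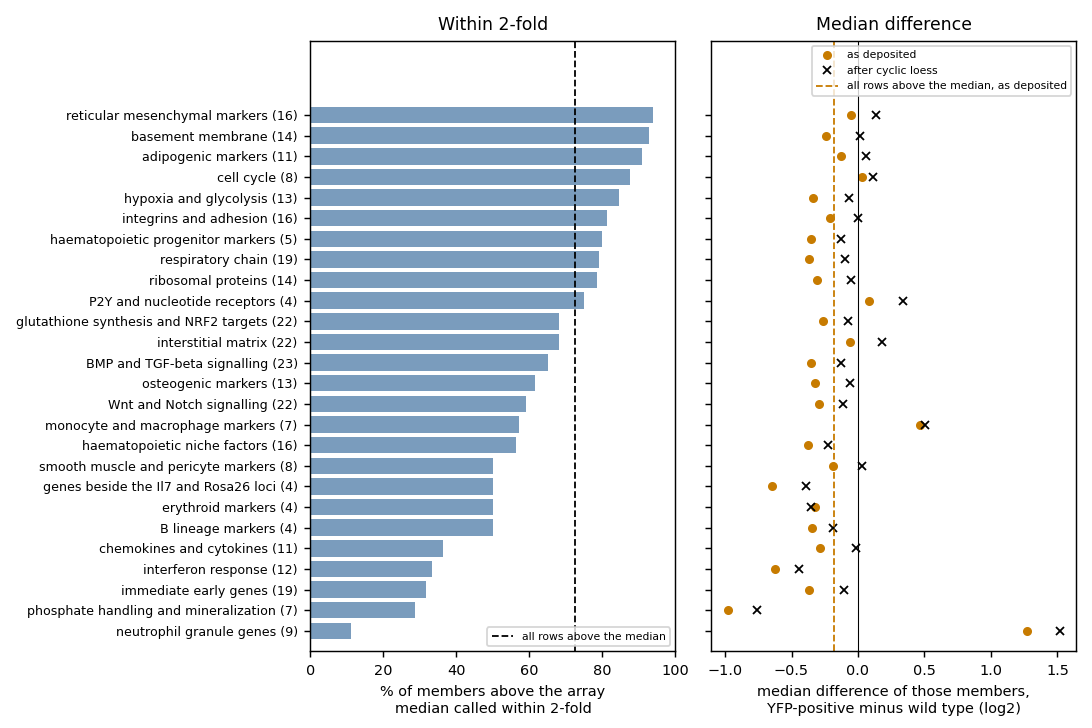
Left, share of each gene list's members above the array median that were called within 2-fold (bars; number of such members in parentheses), for lists with at least 4 such members, with the share of all rows above the median (72.6%) dashed. Right, median difference of the same members as deposited (circles) and after cyclic loess (crosses), with the median of all rows above the median (−0.18) dashed; reticular markers head the left panel and neutrophil granule genes close it.

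P2ry14, Phex, Gclm and Smco3 were singled out because they stood among the genes nearest to a call in earlier results on these same arrays, so their values are a description. P2ry14 encodes a receptor for UDP-glucose and other UDP-sugars. It read 8.97, 9.28 and 8.95 in the YFP-positive arrays and 7.97, 7.71 and 7.96 in the wild-type arrays, against 5.84 and 6.02 in total marrow. The groups did not overlap, and the mean stood 1.18 ± 0.14 (SE) higher in YFP-positive cells (limma adjusted p = 0.0806). Phex encodes a membrane endopeptidase of bone-forming cells whose loss causes phosphate wasting. It read 8.98, 9.20 and 8.73 against 7.85, 7.82 and 7.73, a difference of 1.18 ± 0.14 (SE; limma adjusted p = 0.0806). Total marrow held Phex at 3.40 and 3.65, so both sorted groups were far above it.

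Gclm and Smco3 stood on the other side. Gclm encodes the modifier subunit of glutamate-cysteine ligase, the first enzyme of glutathione synthesis. It read 5.07, 4.76 and 4.72 against 6.08, 6.22 and 6.14, and 8.16 and 8.10 in total marrow. The difference was −1.29 ± 0.12 (SE; limma adjusted p = 0.0680). Smco3, which encodes a small membrane protein with a coiled coil, read 4.61, 4.53 and 4.57 against 6.02, 6.52 and 6.57 (−1.80 ± 0.16, SE; limma adjusted p = 0.0680). All 3 YFP-positive values of Smco3 lay within 0.1 of the array median. On average they lay just below their array medians, so Smco3 counted as above the median through wild type alone. Over the 16 alternative settings the differences ran from 1.08 to 1.49 for P2ry14, 1.06 to 1.47 for Phex, −1.40 to −1.17 for Gclm and −1.98 to −1.69 for Smco3. Gclm was called without YFP-positive replicate 1 (limma adjusted p = 0.0430). Smco3 was called without that array, without wild-type replicate 1 and with intensity-trended robust variances. P2ry14 and Phex were called under none of the 16 settings. Other settings moved these genes further from a call. In a fit of the 6 arrays alone the limma adjusted p was 0.1635 for each of P2ry14, Phex, Gclm and Smco3. With the replicate number as a block the limma adjusted p was 0.4544 for each, the highest of the 16 settings.

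The same rule, smallest p above the array median, named 8 further genes on each side. Higher in YFP-positive cells stood Tifa, an adaptor of TRAF6 signalling, which read 7.0, 6.94 and 6.96 against 6.02, 6.13 and 5.69. Csmd1, a gene of a large membrane protein with sushi domains, read 7.56, 7.73 and 7.29 against 6.89, 6.68 and 6.86. The other higher genes were Mpo, the channel subunit gene Cacng4, the protease inhibitor gene Slpi, the leucocyte protein gene Lsp1, Zfp385c and the protocadherin gene Pcdh9. In wild-type cells Mpo, Cacng4, Slpi, Lsp1 and Pcdh9 lay on average below the array medians, so they passed the filter through YFP-positive cells alone. Of all such rows 39.1% stood higher in all YFP-positive arrays and 0% lower, so the filter fixed their side. Slpi, Lsp1 and Mpo stood above 10 in total marrow and at or below 8.01 in every sorted array.

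On the lower side the collagen lysyl hydroxylase gene Plod1 read 6.32, 6.72 and 6.38 against 7.53, 7.45 and 7.55. Anxa3, an annexin gene, read 5.69, 5.93 and 5.31 against 7.28, 7.09 and 7.47, a difference of −1.64 ± 0.20 (SE). Ublcp1, a phosphatase gene of the proteasome, differed by −1.73 and Nudt1, which encodes an enzyme that clears oxidised nucleotides, by −1.45. Med27, a Mediator subunit gene, Slc35b3, a Golgi sulphate donor transporter gene, Exoc3l4 and the tubulin cofactor gene Tbcd differed by −1.14, −1.08, −1.07 and −0.90. Exoc3l4 was called without YFP-positive replicate 1 (−1.13, limma adjusted p = 0.0450). All 16 genes kept their side after cyclic loess and under each setting tried. Each setting reused arrays in which these genes were chosen by smallest p, so this is a description and not support.

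**Figure D3:**
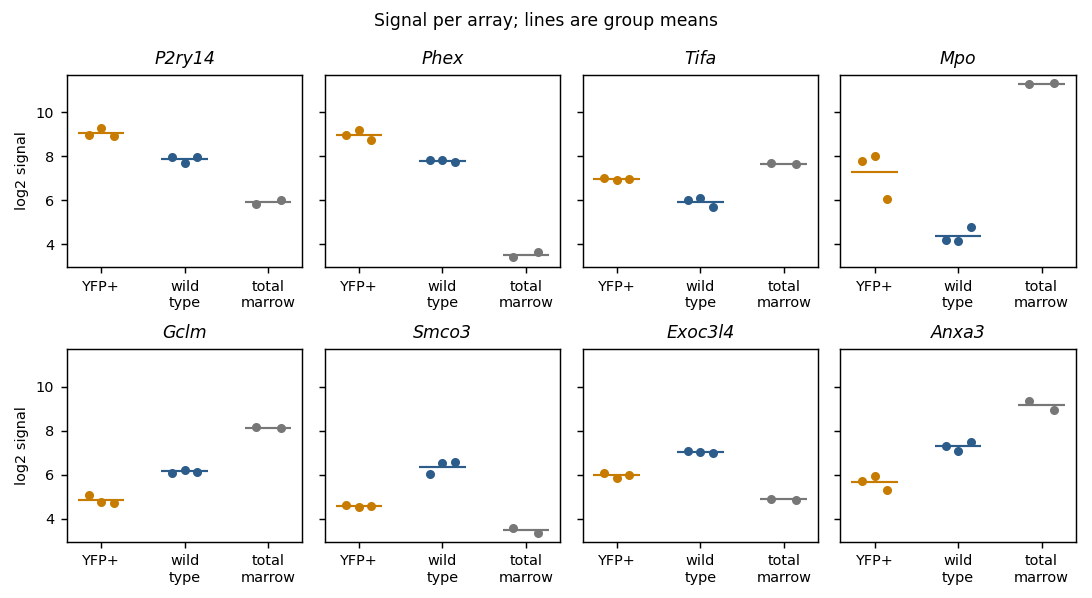
Log2 signal of 8 genes in each array of YFP-positive cells (3), wild-type cells (3) and total marrow (2); lines are group means. P2ry14, Phex, Tifa and Mpo stand higher and Gclm, Smco3, Exoc3l4 and Anxa3 lower in all 3 YFP-positive arrays than in all 3 wild-type arrays, and none was called in the limma fit of all 9 arrays without an intensity trend.

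The osteogenic list held genes on both sides. Of 13 osteogenic genes above the median, 8 were within 2-fold, 6 stood lower in all YFP-positive arrays and 3 higher (Phex, Dlx3 and Sost). Among all rows above the median these shares were 72.6%, 15.6% and 4.30%. Dlx3, a transcription factor gene, and Sost, which encodes the Wnt inhibitor sclerostin, differed by 0.27 and 0.45 and were within 2-fold. Ibsp, which encodes bone sialoprotein, read 12.07, 11.55 and 11.58 against 11.67, 11.94 and 11.72 and was within 2-fold. Alpl, the alkaline phosphatase gene of mineralising cells, read 6.48, 8.95 and 8.08 against 8.99, 9.02 and 10.08 (−1.53 ± 0.60, SE). Col1a1 read 7.36, 7.72 and 7.23 against 8.27, 8.13 and 8.36 (−0.82 ± 0.15, SE), while Col1a2 differed by −0.33 and was within 2-fold. Sp7, the osterix gene, differed by −0.34. After cyclic loess Col1a2 and Sp7 stood at −0.06 and −0.08.

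Of 7 genes of phosphate handling and mineralization above the median, 2 were within 2-fold, 3 stood lower in all YFP-positive arrays and 1, Phex, higher. The shares of all rows above the median were 72.6%, 15.6% and 4.30%. The sodium-phosphate cotransporter genes Slc20a1 and Slc20a2 were lower in all YFP-positive arrays. Slc20a1 read 4.82, 5.36 and 5.28 against 6.27, 6.34 and 6.25, and Slc20a2 read 7.0, 6.75 and 6.68 against 8.17, 7.56 and 8.0. Their differences were −1.14 ± 0.18 and −1.09 ± 0.18 (SE), and −1.01 and −0.84 after cyclic loess. Fgf23 and Dmp1, which act in the same phosphate axis as Phex, stood below the array median in all 6 arrays.

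Of 11 measured nucleotide receptor genes, all but P2ry14 were within 2-fold. Above the median these were 3 of 4, near the 72.6% of all rows there. The rest lay at or below the median, where 97.2% of all rows were within 2-fold. The 3 above the median besides P2ry14 were P2ry1 (−0.02), P2rx4 (−0.03) and Gpr171 (0.19). After cyclic loess P2ry1 and P2rx4 changed sign, to 0.21 and 0.24. P2ry2, below the median, also stood higher in all YFP-positive arrays, by 0.11 (−0.01 after cyclic loess). Among all rows at or below the median 21.9% stood higher in this way. P2ry12, a close relative of P2ry14, stood at 3.11 to 3.35 in the 6 arrays.

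Gclm was the only member of the glutathione and NRF2 list with a difference of at least 1. NRF2, encoded by Nfe2l2, is the transcription factor that raises antioxidant genes through antioxidant response elements. Of 22 listed genes above the median, 15 were within 2-fold, beside 72.6% of all rows above the median. Gclc, the catalytic partner of Gclm, read 4.95, 4.97 and 5.03 against 4.44, 4.99 and 5.48 (difference 0.02). Glutathione reductase Gsr (0.10), thioredoxin reductase Txnrd1 (0.03) and Nfe2l2 itself (−0.40, or −0.12 after cyclic loess) were within 2-fold. Gpx1, Tkt and Nqo1 stood lower in all 3 YFP-positive arrays, by −0.69, −0.53 and −0.48, and Nqo1 was below the array median. After cyclic loess Gpx1 and Tkt stood at −0.43 and −0.29. The promoter of Gclm is shown because it holds the letters searched for here as the core of such an element. Capitals mark the letters GCNNNGTCA, the reverse of TGACNNNGC, in an 80-base window on the gene's strand (RefSeq, GRCm38.p6, chr3:122245388-122245467, plus strand).
Gclm: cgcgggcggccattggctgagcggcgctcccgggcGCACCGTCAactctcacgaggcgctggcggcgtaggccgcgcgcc
These letters, on either strand in the 250 bases before a start, were found in 3338 of 32851 promoters (10.2%), which is 3112 of 27025 genes (11.5%). They were found in 4 of the 19 listed genes with a promoter sequence (Gclm, Txnrd1, Prdx1 and Nfe2l2), of which Gclm alone separated the groups. A match of letters is a description, not a bound site.

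Of 15 measured interferon response genes, 14 had a difference below 0 and none was called. Among the 12 above the median, 7 had an unadjusted p under 0.05 on the lower side and 0 on the higher, beside 17.0% and 3.18% of all rows above the median. In the same 12 genes 5 stood lower in all YFP-positive arrays, beside 15.6%. The median difference of these 12 was −0.62, and −0.44 after cyclic loess, beside −0.18 and −0.01 for all rows above the median. The summed signal of the list lay at 12.61 to 12.75 in the YFP-positive arrays and at 13.01 to 13.06 in the wild-type arrays (log2 of the sum). The sum over all rows tested did not overlap between the groups either, at 21.05 to 21.29 in YFP-positive and 21.32 to 21.45 in wild-type arrays. Bst2, which encodes tetherin, a protein that holds virions to the cell, read 8.48, 10.23 and 9.59 against 11.03, 10.99 and 10.74 (−1.49 ± 0.40, SE). Irf7, a transcription factor that amplifies the response, read 6.59, 6.57 and 5.98 against 7.45, 7.18 and 8.15 (−1.21 ± 0.28, SE). Usp18, which restrains receptor signalling, read 6.12, 5.84 and 5.67 against 6.59, 6.97 and 6.79 (−0.91 ± 0.15, SE). Stat2, a subunit of the factor that binds interferon-stimulated response elements, differed by −0.78 ± 0.20 (SE) and Ifit3 by −0.52 ± 0.20 (SE), or −0.52 and −0.24 after cyclic loess. Other members were level: Ifitm3 read 12.08 to 12.24 in the 6 arrays and was within 2-fold, and Irf9 differed by 0.04.

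The promoters are shown for the 3 genes among these 5 in which letters of the element were found. The list was drawn up for genes known to answer to this element. Usp18, also among the 5, had no promoter sequence here and was not searched. Capitals mark the letters GAAA, any 2 bases, GAAA, or on the other strand TTTC, any 2 bases, TTTC, in 80-base windows on each gene's strand (RefSeq, GRCm38.p6). The windows are chr10:128270248-128270327 (plus strand) for Stat2, chr19:34583338-34583417 (plus strand) for Ifit3 and chr8:71537558-71537637 (minus strand) for Bst2.
Stat2: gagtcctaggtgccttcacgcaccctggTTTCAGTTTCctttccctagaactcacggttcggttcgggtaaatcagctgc
Ifit3: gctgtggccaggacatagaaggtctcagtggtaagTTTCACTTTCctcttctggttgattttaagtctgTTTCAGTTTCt
Bst2: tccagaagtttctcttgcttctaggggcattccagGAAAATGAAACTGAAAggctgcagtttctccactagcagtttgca
In Bst2 2 matches overlap. The letters were found in 978 of 32851 promoters (2.98%), which is 936 of 27025 genes (3.46%). Of the 12 listed genes with a promoter sequence, 6 held them. Irf7 held no match in its 250 bases and separated the groups, whereas Rsad2, which held one, differed by −0.14 and stood below the array median; no match says only that these letters are not in this window.

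Of 8 smooth muscle and pericyte markers above the median, 3 were lower in all YFP-positive arrays, beside 15.6% of all rows above the median, and 4 were within 2-fold. Acta2, the smooth muscle actin gene, read 4.63, 4.52 and 4.54 against 5.17, 5.83 and 6.68 (−1.33 ± 0.34, SE). Tagln, an actin-binding protein gene, read 4.56, 4.32 and 4.02 against 4.95, 5.75 and 5.72 (−1.18 ± 0.24, SE), and the myosin light chain gene Myl9 read 9.59, 9.94 and 8.48 against 10.08, 11.00 and 10.29 (−1.12 ± 0.39, SE). In YFP-positive cells Acta2 and Tagln lay on average below the array medians, so they passed the filter through wild type alone. Of all such rows 34.2% stood lower in all YFP-positive arrays and 0% higher, so the filter fixed their side. Myh11, the myosin heavy chain that defines mature smooth muscle, stood at 4.03 to 4.33 in all 6 arrays and was within 2-fold, as was the pericyte gene Notch3 (−0.08, or 0.18 after cyclic loess). Kcnj8, a pericyte channel gene below the median, stood higher in all YFP-positive arrays, by 0.70 ± 0.27 (SE). Among all rows at or below the median 21.9% stood higher in this way. The summed signal of the list was 9.62 to 10.61 in YFP-positive and 10.66 to 11.34 in wild-type arrays, apart as was the sum over all rows.

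Of 19 measured neutrophil granule genes, 18 had a difference above 0, none was called and 6 were within 2-fold, beside 84.8% of all rows. An unadjusted p under 0.05 was reached by 9 on the higher side and 0 on the lower, beside 5.80% and 9.12% of all rows. The groups did not overlap in 8, all higher in YFP-positive cells, beside 13.0% of all rows. Of the 9 genes above the median 4 stood higher in this way, beside 4.30% of all rows there. At or below the median 21.9% of all rows did. The median difference of the 19 genes was 0.91, and 0.86 after cyclic loess. Mpo, which encodes myeloperoxidase of the primary granules, read 7.80, 8.01 and 6.06 against 4.19, 4.14 and 4.76, and 11.29 and 11.33 in total marrow. Its difference of 2.93 ± 0.48 (SE) was not called (limma adjusted p = 0.104), and was called without YFP-positive replicate 3 (3.54, limma adjusted p = 0.0246). Prtn3, a primary granule protease gene, read 5.86, 6.61 and 5.87 against 5.50, 4.83 and 5.28. Camp, the cathelicidin gene of the secondary granules, read 7.49, 6.64 and 5.12 against 4.93, 4.71 and 5.04. S100a8 varied widely inside each group (11.01, 9.21 and 4.36 against 9.29, 5.96 and 4.04), and its groups overlapped. Ly6g, which defines mature neutrophils, stood at 2.81 to 3.10 in the 6 arrays and at 10.6 on average in total marrow. The summed signal of the list was 9.60 to 12.15 in YFP-positive and 8.58 to 10.59 in wild-type arrays, against 15.72 and 15.76 in total marrow, so the 2 sorted groups overlapped. The part of blood cell RNA in the other differences was not tested. P2ry14, Phex and Smco3 were brighter in the wild-type cells than in total marrow, whereas Gclm and Anxa3 were brighter in total marrow than in either sorted group.

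**Figure D4:**
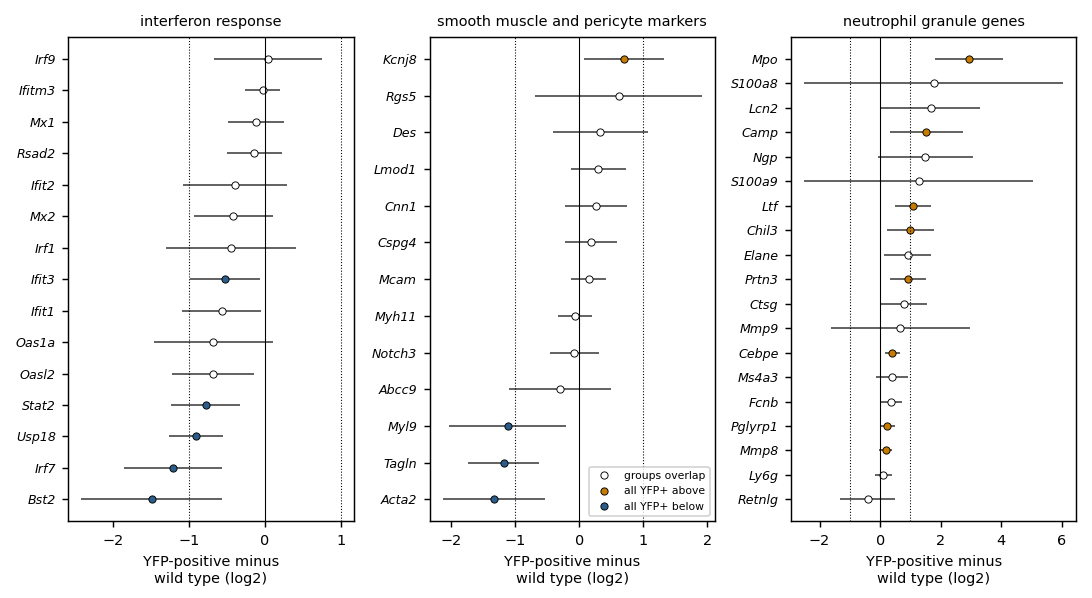
Difference of each listed gene (YFP-positive minus wild type, log2) with its 95% limma interval for interferon response genes, smooth muscle and pericyte markers and neutrophil granule genes; dotted lines mark 2-fold. Filled circles are genes whose groups do not overlap: 5 interferon genes and 3 smooth muscle genes (Acta2, Tagln and Myl9) stand lower, and Kcnj8 and 8 neutrophil genes higher, in YFP-positive cells, beside genes of the same lists near 0.

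Summed markers of most other marrow cell types overlapped between the groups. Such a sum follows its brightest members and cannot show a change in the dim ones. Of 17 endothelial genes, 1 stood above the array median. The endothelial genes Pecam1, Cdh5 and Kdr stood at 3.06 to 3.82 in the 6 arrays, below every array median, and each was within 2-fold. Summed signals overlapped for monocyte and macrophage markers (11.36 to 11.87 in YFP-positive and 11.62 to 11.79 in wild-type arrays; the list holds the stromal gene Vcam1), B lineage markers (9.97 to 10.37 and 10.27 to 10.53), erythroid markers (7.45 to 7.95 and 7.55 to 8.86) and endothelial markers (8.62 to 8.99 and 8.76 to 9.01). The sum of T and NK cell markers did not (7.53 to 7.79 and 7.40 to 7.53), and all 13 of its genes were within 2-fold, beside 84.8% of all rows. Of 16 measured monocyte and macrophage genes, 5 stood higher in all YFP-positive arrays and 0 lower, beside 13.0% and 8.72% of all rows. Above the median 1 of 7 stood higher, beside 4.30% of all rows there. The rest lay at or below the median, where 21.9% of all rows stood higher and 1.71% lower. The median difference of the 16 genes was 0.24, and 0.17 after cyclic loess. Lyz2, the lysozyme gene of myeloid cells, read 8.34, 3.67 and 4.55 against 4.09, 3.57 and 3.69, high in YFP-positive replicate 1 alone. Csf1r, the macrophage growth factor receptor gene, stood at 3.62 to 4.02 in the 6 arrays. The Schwann cell marker Sox10 stood at 4.07 to 4.59.

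Of 23 BMP and TGF-beta genes above the median, 10 had an unadjusted p under 0.05 on the lower side and 0 on the higher, beside 17.0% and 3.18% of all rows above the median. Their median difference of −0.35 became −0.13 after cyclic loess. Bmp2 read 5.37, 6.26 and 5.30 against 6.96, 6.78 and 7.21 (−1.34), and Id3, a target of BMP signals, read 9.17, 9.89 and 9.81 against 10.32, 10.31 and 10.41 (−0.72, or −0.46 after cyclic loess). Bmp6 stood the other way, at 10.36, 10.07 and 10.04 against 9.96, 9.84 and 9.89, and was within 2-fold. Among 22 Wnt and Notch genes above the median, 7 reached an unadjusted p under 0.05 on the lower side and 1 on the higher, and their median went from −0.29 to −0.11. The Wnt antagonist gene Sfrp1 read 8.10, 7.72 and 6.84 against 8.88, 8.60 and 8.49, the Wnt amplifier gene Rspo3 read 8.86, 8.97 and 8.95 against 9.65, 9.89 and 9.45, and the Notch target Heyl read 8.16, 7.69 and 8.02 against 9.14, 8.74 and 8.64.

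Interstitial matrix genes had a median difference of −0.06, which became 0.18 after cyclic loess, and 15 of 22 were within 2-fold, near the 72.6% of all rows above the median. Decorin (Dcn) read 10.96, 10.80 and 10.35 against 10.24, 10.05 and 10.15, higher in all YFP-positive arrays and within 2-fold (0.56 ± 0.17, SE). Lumican (Lum) read 9.60, 9.27 and 8.05 against 7.26, 7.23 and 8.34, so its groups overlapped through YFP-positive replicate 3 and wild-type replicate 3. Col5a2 stood lower, at 6.26, 6.45 and 5.88 against 6.97, 7.01 and 7.04.

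Immediate early genes, which are induced within minutes by handling and other stimuli, varied widely within both groups. Fos read 8.08, 7.45 and 9.85 against 9.73, 9.72 and 8.51, and Egr1 read 10.15, 8.36 and 10.64 against 10.63, 10.20 and 9.43. In both genes YFP-positive replicate 2 was the lowest and replicate 3 the highest of its group, and wild-type replicate 3 was the lowest of its own. Of 19 such genes above the median, 6 were within 2-fold, beside 72.6% of all rows above the median. Dusp1, a phosphatase gene that shuts off MAP kinases, was the only one of 20 whose groups did not overlap (8.36, 7.75 and 9.11 against 10.52, 10.93 and 9.48). Its difference of −1.90 ± 0.44 (SE) was not called.

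The largest differences without overlap came mostly from genes with a wide spread among the YFP-positive arrays. Serpina3n, a secreted protease inhibitor gene, read 11.48, 4.81 and 8.03 against 4.70, 4.61 and 4.65, so that YFP-positive replicate 2 lay near wild type. The YFP-negative array held it at 10.54. Adcyap1r1, a receptor gene for the peptide PACAP, read 7.19, 4.80 and 4.68 against 4.34, 4.49 and 4.22. Its wild-type values lay below their array medians, so it counted as above the median through YFP-positive cells alone. Slc2a13, a myo-inositol transporter gene, was steadier, at 7.92, 7.19 and 6.67 against 6.20, 5.83 and 5.79, and Cbx7, a Polycomb gene, read 6.33, 6.21 and 7.28 against 5.58, 5.51 and 5.09. Ubxn2a differed by 1.99 with a wild-type SD of 1.27.

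On the lower side the spread was as wide. Rbp4, the retinol carrier gene, read 4.71, 7.56 and 5.20 against 8.02, 7.84 and 8.27. Ctsc, the cathepsin C gene, read 4.34, 6.34 and 4.68 against 7.01, 7.46 and 7.34. In both genes YFP-positive replicate 2 lay closest to wild type and the other 2 further below, and both were called without that replicate (limma adjusted p = 0.0249). Fah, the last enzyme of tyrosine breakdown, read 7.51, 6.57 and 5.38 against 8.33, 8.59 and 8.53. Gadd45a, a growth arrest gene, read 4.74, 7.02 and 7.12 against 8.29, 8.34 and 7.94. Dennd4a, Lypla2, Atxn1, Adamts9 and Zfp882 differed by −2.04 to −1.83, with an SD of 0.53 to 1.46 among YFP-positive arrays. Zfp882 lay on average below the array medians in YFP-positive cells and counted as above the median through wild type alone.

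**Figure D5:**
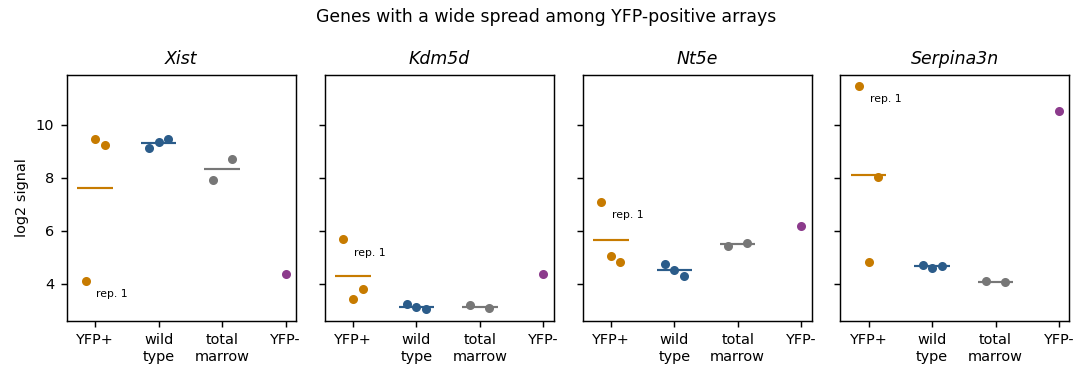
Log2 signal of 4 genes with a wide spread among the YFP-positive arrays, by array, in YFP-positive (3), wild-type (3), total marrow (2) and YFP-negative cells (1, deposited on a lower scale with a median of 3.46); lines are group means. YFP-positive replicate 1, marked, lies low in Xist and high in Kdm5d, Nt5e and Serpina3n.

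No difference was called for the transcripts behind the sort and the reporter. Il7 read 7.34, 7.87 and 6.41 against 7.97, 7.95 and 7.54, and neither equality within 2-fold nor a difference was shown. The Il7 difference was −0.61 ± 0.34 (SE; −0.35 after cyclic loess). It was −0.21 without YFP-positive replicate 3 and −0.95 without YFP-positive replicate 2. Enpep read 5.91, 7.73 and 6.66 against 7.41, 7.18 and 7.49, a difference of −0.59 ± 0.40 (SE; −0.35 after cyclic loess). It was −0.16 without YFP-positive replicate 1 and −1.08 without YFP-positive replicate 2. Icam1 read 6.81, 6.50 and 6.20 against 6.61, 6.31 and 6.31 and was within 2-fold, as was Ptprc. Genes that lie beside Il7 and the Rosa26 locus were read because a transgene or an inserted allele differs between the groups. Of 8 measured, none stood higher in all YFP-positive arrays. Among the 4 above the median Zc2hc1a and Mrps28 stood lower, beside 15.6% of all rows above the median, with differences of −0.61 ± 0.17 and −0.68 ± 0.25 (SE) that became −0.37 and −0.41 after cyclic loess.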

How the data were processed

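Values were measured on Affymetrix Mouse Gene ST 1.0 arrays from amplified RNA. The deposited log2 values were made by the authors with Affymetrix Expression Console 1.3.1 and RMA, per the submitters' processing notes; whether all arrays were summarised together is not given in the sources used here. Arrays have no depth, so their number limits the precision. Of 35556 rows, 21789 pair with 1 gene symbol in the platform annotation and were tested; 1621 rows with several genes and 12146 with none were not named. For 999 genes with several rows, lists used the brightest row.

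One limma fit (limma 3.58.1, R 4.3.3; a mean per group, eBayes, 5 residual and 2.50 prior degrees of freedom) covered all 9 arrays, with two-sided tests, Benjamini-Hochberg adjustment over all rows and a threshold of 0.05. Equality used 2 one-sided tests against a margin of 1 log2 unit. The fit was tested on simulated data. Named genes were P2ry14, Phex, Gclm and Smco3; the gate and reporter genes; the 10 smallest p-values in each direction above the array median; the 10 brightest genes within 2-fold; the 10 largest differences without overlap in each direction; and up to 4 members of each list. Further members are named after their values were seen. Members, lists and tests were chosen with earlier results of these data known. Same-numbered replicates did not deviate together (correlations −0.02, −0.07 and −0.04). With 3 arrays in each group this cannot exclude a pairing, so whether numbers pair samples is not known. Alternatives covered the arrays fitted, normalization, filter, moderation, weights, margin and replicates left out.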

Additional observations from a re-analysis of the deposited data

Results flagged for a closer look

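A row that the gene tests left out, transcript cluster 10343696, to which the platform annotation used here assigns no gene, held a signal in the YFP-positive cells far above its level in wild-type cells and total marrow. It read 7.62, 7.50 and 7.92 in the YFP-positive arrays (mean 7.68), 4.75, 5.26 and 5.04 in the wild-type arrays and 4.0 and 4.05 in total marrow. The YFP-negative array held it at 2.54, on that array's lower scale. The difference was 2.66 ± 0.17 (SE), the only row of 35556 called when all rows of the file were tested (limma adjusted p = 0.0391). It was also called without YFP-positive replicate 1 or 2. It was not called in a fit of the 6 arrays alone, after quantile or cyclic loess normalization, with intensity-trended variances, with the replicate block, or without YFP-positive replicate 3 or any wild-type array. The difference ran from 2.53 to 2.82 over these settings. What the probes of the row match was not analysed here.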

How the results depend on the processing

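No row was called different with the 6 arrays alone, 8 arrays, quantile normalization, cyclic loess with or without array weights (the former chosen after seeing the data), rows above the median only, or array weights. Intensity-trended robust variances called 9 rows, all lower, testing all rows of the file called 1, and leaving out 1 array gave 0 to 26. The replicate number as a replicate block called 0 rows, with 18124 rows within 2-fold, 7671 of them above the median. Within 2-fold stood 17279 to 19024 rows, and 6930 to 8534 above the median, when 1 array was left out; a margin of 1.5-fold left 10667 and 2695. The Icam1 difference ran from −0.0634, with its sign changed, to 0.245 when 1 array was left out (without YFP-positive replicate 1 and 3), and reached 0.336 after cyclic loess with array weights. Ptprc changed sign to −0.0331 after quantile normalization, −0.0319 after cyclic loess and −0.00327 after cyclic loess with array weights; the cause was not tested. The other 22 genes recomputed under every setting (Il7, Enpep and the genes of smallest p) kept their sign. The genes of smallest p were chosen in these same arrays, so their kept sign is no support. Other printed differences whose sign turned after cyclic loess have that value beside them. Medians of 14 of 32 lists moved by more than the replicate spread after cyclic loess, in which the offset by signal level is removed by construction. With 3 arrays against 3, the median half-width of the unadjusted 95% interval above the median was 0.51. This is not the limit of the adjusted test, which left every difference of at least 1 uncalled as well.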

Other observations

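Of 14 ribosomal protein genes, 11 were within 2-fold and 8 stood lower in all YFP-positive arrays, beside 72.6% and 15.6% of all rows above the median, with a median difference of −0.31 that became −0.05 after cyclic loess. Of 19 respiratory chain genes, 15 were within 2-fold, and their median went from −0.37 to −0.10. Among 13 hypoxia and glycolysis genes above the median, 11 were within 2-fold. Ldha, the lactate dehydrogenase gene, was an exception, at 7.16, 7.41 and 6.78 in YFP-positive and 7.89, 8.08 and 7.65 in wild-type arrays (−0.76 ± 0.18, SE; −0.50 after cyclic loess).

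Of 16 integrin and adhesion genes above the median, 13 were within 2-fold, near the 72.6% of all rows above the median. Among them were the cadherin genes Cdh11 (−0.09) and Cdh2 (0.03) and the integrin gene Itgav (−0.10); after cyclic loess Cdh11 and Itgav changed sign, to 0.16 and 0.17. Of these 16 genes 3 stood lower in all YFP-positive arrays, among them the integrin genes Itgb3 and Itga5, and 0 higher. The shares of all rows above the median were 15.6% and 4.30%, so the lower count was near that of all rows. Itgb3 read 5.0, 5.70 and 5.28 against 6.54, 5.90 and 6.25, and Itga5 read 4.99, 5.47 and 5.07 against 6.12, 5.80 and 5.84. Of 11 chemokine and cytokine genes above the median, 4 were within 2-fold and the groups of none were apart. Cxcl13, a chemokine for B cells, read 3.87, 6.55 and 4.72 against 7.55, 6.37 and 6.91, and Il15 read 8.32, 7.81 and 5.45 against 7.95, 8.65 and 7.84; the groups of both overlapped. Of 25 cell cycle genes, 8 stood above the median and 7 of these were within 2-fold.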
